A study of Mus musculus with 6 samples.

Results

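Replication-dependent histone genes encode the linker histone H1 and the core histones H2A, H2B, H3 and H4 that package newly copied DNA. They were taken as the genes whose symbol begins with Hist1h to Hist4h, H2ac, H2bc, H3c or H4c followed by a digit, or is H1f1, H1f2, H1f3, H1f4 or H1f5. The rule uses symbols alone and found 66 of the 55487 genes in the table, of which 62 held at least 10 counts in 3 libraries and were tested. They comprise 5 H1, 20 H2A, 17 H2B, 12 H3 and 12 H4 genes, including 3 annotated pseudogenes. RNA was taken from mouse marrow LSK cells, which lack lineage markers, carry Sca-1 and Kit and include haematopoietic stem cells and multipotent progenitors. The 3 wild-type libraries came from littermates and the 3 Mc5r-null libraries from mice without the melanocortin 5 receptor. The series describes mice of both genotypes as irradiated. Dose, time after irradiation, age, strain, the number of mice behind a library and the deleted part of Mc5r are not given in the sources used here. No unirradiated sample was analysed. The RNA was captured by its poly-A tail and made into paired-end stranded libraries.

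Replication-dependent histone mRNAs are made mainly in S phase and are degraded when DNA synthesis stops. Unlike other mRNAs of animal cells they normally end just after a short stem-loop, which the stem-loop binding protein Slbp recognises, and carry no poly-A tail. A poly-A library therefore samples the tailed fraction of these transcripts, which is usually small and differs between genes. The values below are levels of poly-A-captured RNA and not of total histone mRNA.

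The stem-loop was searched in the annotated GENCODE mouse release 21 transcripts on GRCm38 because it marks where the usual mRNA ends and so shows which annotated transcripts run past that end. The pattern was GG and any 4 bases, a loop of T, any base, T and any base, and then the reverse complement of the first 6 bases. It was found in 42 of the 66 members, with 8 different cores, and 24 members shared 1 core. The lines below give this core in 3 members that were lower in Mc5r-null cells (H1f2, H2bc8 and Hist1h2ao) and 3 other cores, in members that were not called. Of the 24 members with the shared core 8 were called lower and 16 were not, and of the 18 with another core 0 were called. Of all genes tested 16.0% were called lower. The core goes with histone class, as no H4 gene carried the shared one, so these counts are only a description. Capitals mark the 6-base stems and the 4-base loop.
H1f2: aaaaGGCTCTTTTCAGAGCCaccact
H2bc8: caaaGGCTCTTTTCAGAGCCacccat
Hist1h2ao: aaaaGGCTCTTTTCAGAGCCatccac
H2bc12: caaaGGCTCTTTTAAGAGCCactaaa
H4c2: aaaaGGTCCTTTTCAGGACCactcac
H4c9: taaaGGCCCTTTTTAGGGCCaccaca

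The annotated transcript ran on for 840 bases past the stem-loop in H1f2, 330 in H4c9 and 155 in H2bc8, but only 31 in Hist1h2ao, 30 in H2bc12 and 28 in H4c2. The core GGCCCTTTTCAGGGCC was found in 6 members, all of them H4 genes. No H4 gene carried the core shared by the 24.

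Gene counts summed to between 14903723 and 14953169 in the wild-type libraries and between 13983016 and 14076870 in the Mc5r-null libraries. Mc5r itself held 181, 157 and 198 counts in wild type and 0, 0 and 1 in Mc5r-null. The wild-type libraries held 78.2 to 86.0 CPM (counts scaled to a library total of 1000000) of Xist, the RNA of the inactive X chromosome, and the Mc5r-null libraries 0 to 0.143 CPM. The Y-linked gene Ddx3y was present at 50.7 to 75.7 CPM in wild type and 80.5 to 85.5 CPM in Mc5r-null, so the sex makeup of the libraries differed and cannot be told apart from genotype. All 12 LSK markers examined were detected, among them Kit, which averaged 241 CPM in wild-type and 256 in Mc5r-null libraries. Markers of cells outside the gate were present too, and they are given after the histone results. Nothing says that the libraries came from separate mice, so every p-value and SD describes only how these libraries vary, which may be technical variation. Of 15348 genes tested, 32.8% were called at an adjusted p under 0.05 with edgeR's quasi-likelihood test (16.7% higher and 16.0% lower in Mc5r-null).

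Summed poly-A-captured histone RNA was lower in Mc5r-null LSK cells. The 66 members summed to 1203, 1224 and 1204 CPM in wild type and to 913.4, 909.6 and 916.1 CPM in Mc5r-null. Every Mc5r-null library was below every wild-type library. The mean fell from 1210 ± 12 to 913 ± 3.25 CPM (SD, n = 3 each), a log2 ratio of -0.41, with no test made on the sum. A fall in CPM in bulk RNA cannot tell fewer cells with histone mRNA from less histone mRNA per cell.

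Of the 62 tested members, 11 were called lower and 0 higher. The share called lower, 17.7%, was close to the 16.0% of all genes tested, so the number of calls by itself is no result about histone genes. With DESeq2, 9 members were called lower and 0 higher, where 9.41% and 10.8% of all genes were. With limma-voom, 12 were called lower and 0 higher, where 15.7% and 16.4% of all genes were. At an unadjusted p under 0.05 in edgeR, 18 members were lower and 1, Hist1h4m, was higher. The 3 Mc5r-null values were all below the 3 wild-type values for 21 of the 62, where this held for 28.7% of all genes, and all above them for 1, H3c1, where this held for 20.9% of all genes. The median log2 fold change of the tested members was -0.17, against -0.00477 for all genes tested, and 69.4% of members had a negative fold change, against 50.7% of all genes. The calls lay among the abundant members. Of the 20 members with the highest mean count, 10 were called lower, and of the other 46 (42 tested), 1 was called. Those 46 nevertheless summed to 181.8, 179.1 and 183.4 CPM in wild type and to 166.0, 160.7 and 159.7 CPM in Mc5r-null, again with no overlap (log2 ratio -0.16). The median log2 fold change was -0.33 in the 20 and -0.11 in the others, of which 28 of 42 had a negative estimate. Whether the fold changes of members differ from one another was not tested. At a mean count of at least 108, that of the least counted member called, 11 of 25 members were called lower (44.0%), as were 20.5% of the 10658 genes at that level. That limit was set by the called members themselves, so the comparison is a description.

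**Figure D1:**
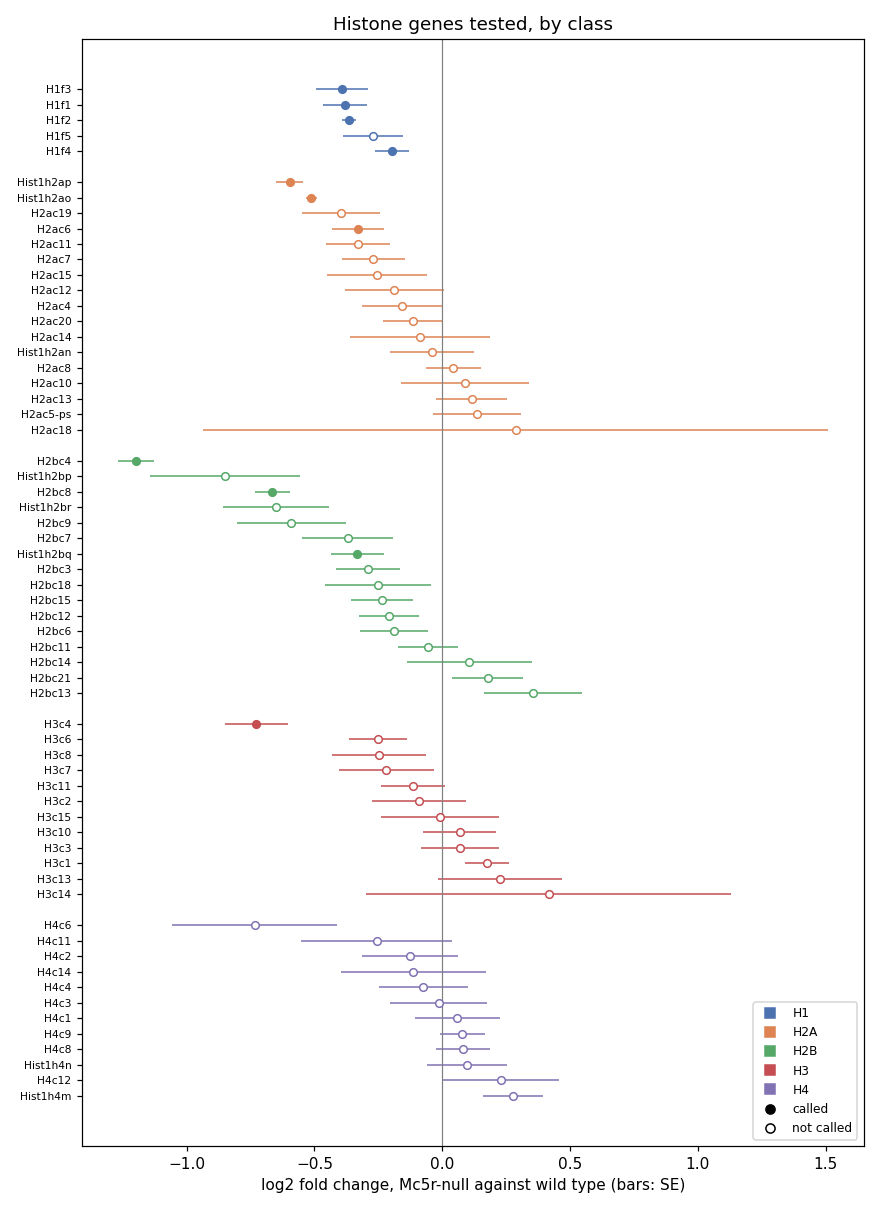
Log2 fold change of each of the 62 tested histone genes in Mc5r-null against wild-type libraries, with its standard error, grouped and coloured by histone class (filled, called lower; open, not called). The 11 filled points all lie left of 0 and include 4 of 5 H1 genes and 0 of 12 H4 genes, and H2ac18 has the widest bar. Over all genes tested, 16.0% were called lower.

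**Figure D2:**
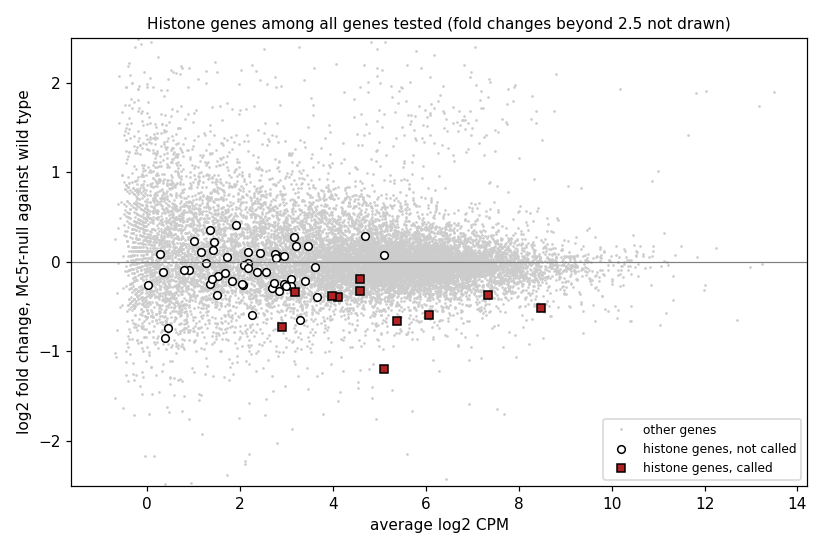
Average log2 CPM against log2 fold change for the genes tested (grey) and the histone members (open circles, not called; red squares, called lower). The called members lie mostly to the right, at higher levels, and H2bc4 lies lowest of the called members at -1.20.

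The linker histones H1 bind DNA where it enters and leaves the nucleosome, and the rule takes in 5 of their genes. Of these, 4 were called lower, and all 5 had groups that did not overlap. Over all genes tested, 16.0% were called lower and 28.7% had Mc5r-null values all below the wild-type values. H1 was also the best counted class, with a median mean count of 249. H1f2, the second most counted member, held 180.6, 184.9 and 187.1 CPM in wild type and 141.9, 139.0 and 138.4 CPM in Mc5r-null. The genotypes stood well apart, with little spread within either. The log2 fold change was -0.36 ± 0.03 (SE; edgeR adjusted p = 2.00e-05), and H1f2 alone made up most of the summed H1 level, which fell from 257 ± 3.88 to 197 ± 1.98 CPM (SD, n = 3 each).

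H1f1 held 17.2, 19.5 and 17.2 CPM in wild type against 14.4, 12.9 and 13.1 CPM in Mc5r-null (edgeR log2 fold change -0.38 ± 0.09 SE, adjusted p = 0.0107). H1f3 held 17.9, 19.9 and 21.0 CPM against 12.9, 14.6 and 16.2 CPM (-0.39 ± 0.10, edgeR adjusted p = 0.0190). In both genes the lowest wild-type library stayed above the highest Mc5r-null library, by a narrower margin in H1f3. The H1f3 call was lost without wild-type replicate 2, wild-type replicate 3 or Mc5r-null replicate 1.

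H1f4 showed the smallest difference of the 11 called members, from 26.4, 25.8 and 24.5 CPM to 21.6, 22.7 and 21.1 CPM (edgeR log2 fold change -0.20 ± 0.07 SE, adjusted p = 0.0490). Its call held in only 5 of 16 settings and was lost with DESeq2 and without any 1 library. H1f5 was not called, with 10.0, 8.91 and 9.06 CPM in wild type and 8.54, 6.61 and 7.51 CPM in Mc5r-null (edgeR log2 fold change -0.27 ± 0.12 SE, adjusted p = 0.115).

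**Figure D3:**
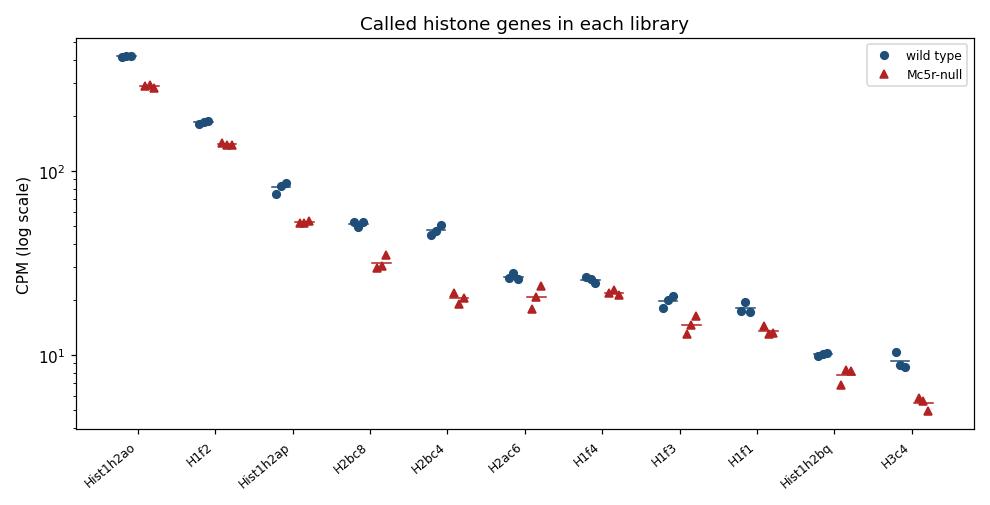
CPM (log scale) of the 11 histone genes called lower, in each wild-type (blue circles) and Mc5r-null library (red triangles), with horizontal lines at the means. In all 11 genes the 3 Mc5r-null points lie below the 3 wild-type points, with the widest gap in H2bc4.

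H2A pairs with H2B to form the dimers at the outer faces of the nucleosome. Of 20 H2A genes 17 were tested, and 3 were called lower (Hist1h2ao, Hist1h2ap and H2ac6), where 16.0% of all genes tested were. Hist1h2ao, on chr13:21810465-21810944 (GRCm38, plus strand), was the most abundant member, both by counts and per length. Its FPKM (CPM divided by length in kilobases) fell from 878 ± 4.98 to 601 ± 11.4 (mean ± SD, n = 3 each), and was above that of Hist1h2ap, 169 ± 11.3 and 109 ± 1.86, in either genotype.

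Hist1h2ao held 419.3, 420.8 and 424.0 CPM in the wild-type libraries and 288.8, 293.9 and 282.9 CPM in the Mc5r-null libraries. The 3 libraries of a genotype were nearly alike and the genotypes were far apart. The log2 fold change was -0.51 ± 0.02 (SE; edgeR adjusted p = 6.65e-07), the smallest p of any member.

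Hist1h2ap, on chr13:21833026-21833507 on the minus strand, held 75.4, 82.8 and 86.0 CPM in wild type and 52.2, 51.9 and 53.6 CPM in Mc5r-null. Again no value of one genotype reached those of the other. The log2 fold change was -0.60 ± 0.05 (SE; edgeR adjusted p = 6.64e-05). Hist1h2ao and Hist1h2ap together made up 41.6% of all histone CPM in wild type, and the other 64 members summed to a log2 ratio of -0.31.

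Near-identical copies can share reads, and the program that assigned reads to genes, its use of strand and its treatment of reads with several matches are not known. In 35 of the 66 members over 50% of the 50-base stretches of the longest transcript occurred also in another annotated transcript, and for Hist1h2ao the share was 93.5% and for Hist1h2ap 93.1%. The split of counts among such copies is uncertain, as it is for members that overlap other genes. Summed over the 10 H2A genes that share most of their stretches, counts were 7869, 8024 and 8112 in wild type and 5225, 5270 and 5094 in Mc5r-null. The summed copies were thus lower in each Mc5r-null library, with a log2 fold change of -0.50 ± 0.02 (SE; edgeR adjusted p = 7.38e-07).

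H2ac6 has a longer annotated transcript that runs 2010 bases past the stem-loop, and 14.1% of its stretches are shared with other genes. Of the stretches of Hist1h2ao 61.0% occur in H2ac6, as do 60.7% of those of Hist1h2ap. How reads were split among them was not tested. H2ac6 held 26.2, 27.9 and 25.8 CPM in wild type and 17.8, 20.5 and 23.8 CPM in Mc5r-null, with no overlap but a wide spread in Mc5r-null. The log2 fold change was -0.33 ± 0.10 (SE; edgeR adjusted p = 0.0381), and the call was lost with DESeq2 and without any 1 library except Mc5r-null replicate 3. The 14 tested H2A genes that were not called had log2 fold changes between -0.40 in H2ac19 and 0.29 in H2ac18. Without Hist1h2ao and Hist1h2ap the H2A genes summed to between 98.2 and 136.6 CPM in wild type and between 104.0 and 111.5 CPM in Mc5r-null. The genotypes overlapped through wild-type replicate 3, in which H2ac18 was at 0. The log2 ratio was -0.14, and it was -0.25 both without that library and without H2ac18.

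H2ac18 on chromosome 3 stood apart for 1 library. It held 474, 579 and 0 counts in the wild-type libraries and 372, 390 and 418 in the Mc5r-null libraries. The value of 0 in wild-type replicate 3, which allows a level of up to 0.201 CPM by counting error alone, lay far from the other 5. No other gene of the table was at 0 in 1 library with at least 100 counts in each of the other 5.

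Its near-identical copy H2ac19, whose 50-base stretches are all shared, held 163, 225 and 251 counts in wild type and 142, 146 and 158 in Mc5r-null. Gm20634, which overlaps H2ac18 and H3c14 on the same strand, was also at 0 in wild-type replicate 3, with 28, 70 and 0 counts in wild type and 54, 53 and 50 in Mc5r-null. The overlapping H3c14 held 17, 36 and 88 counts in wild type and 29, 57 and 87 in Mc5r-null, the widest spread within a genotype of any tested member without a 0. Neither H2ac18 (edgeR log2 fold change 0.29 ± 1.22 SE, adjusted p = 0.888) nor H3c14 (0.42 ± 0.71, edgeR adjusted p = 0.710) was called. Without wild-type replicate 3, H2ac18 had a log2 fold change of -0.30 (edgeR adjusted p = 0.0575). How reads were assigned among these genes was not tested.

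H2B contributed the largest fold change. Of 17 H2B genes 16 were tested, and 3 were called lower (H2bc4, H2bc8 and Hist1h2bq), while 9 had Mc5r-null values all below the wild-type values. Over all genes tested, 16.0% were called lower and 28.7% had such values. The number of H2B calls by itself is therefore no result about the class. H2bc4, at chr13:23684199-23692908 on the plus strand, is annotated with 1 transcript of 1156 bases in which no stem-loop was found. It held 45.1, 47.2 and 50.8 CPM in wild type and 21.7, 18.8 and 20.4 CPM in Mc5r-null. The lowest wild-type library was above every Mc5r-null library by a wide margin. The level was 2.30-fold lower (edgeR log2 fold change -1.20 ± 0.07 SE, adjusted p = 5.75e-06).

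H2bc8, at chr13:23571396-23572013 on the plus strand, held 52.5, 49.5 and 52.6 CPM in wild type and 29.7, 30.6 and 34.9 CPM in Mc5r-null. The groups were again separate, and the level was 1.59-fold lower (edgeR log2 fold change -0.67 ± 0.07 SE, adjusted p = 0.000156). Of the 50-base stretches of H2bc8 49.7% are shared, and 45.0% occur in H2bc4, of whose own stretches 30.1% are shared. How reads were split between H2bc8 and H2bc4 was not tested. The third called gene, Hist1h2bq, went from 9.83, 10.1 and 10.3 CPM to 6.90, 8.31 and 8.22 CPM (-0.33 ± 0.10, edgeR adjusted p = 0.0378), a call that was lost with DESeq2 and without any 1 library except Mc5r-null replicate 2.

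Hist1h2bq shares 97.3% of its 50-base stretches with other genes. Summed with its copies H2bc13 and Hist1h2br, the log2 fold change was -0.40 ± 0.08 (SE; edgeR adjusted p = 0.00588). Other H2B genes with sizeable estimates did not pass, among them Hist1h2bp at -0.85 ± 0.29 (edgeR adjusted p = 0.0571), Hist1h2br at -0.65 ± 0.21 (0.0519) and H2bc9 at -0.59 (0.0658).

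The abundant H2B genes H2bc11 and H2bc12 showed little or no separation. H2bc11 held 11.3, 12.9 and 13.4 CPM in wild type and 10.2, 11.7 and 13.4 CPM in Mc5r-null, and the groups overlapped (edgeR log2 fold change -0.06 ± 0.12 SE, adjusted p = 0.760). H2bc12 held 12.2, 11.3 and 10.4 CPM against 9.68, 10.7 and 8.37 CPM, also with overlap (-0.21 ± 0.12, edgeR adjusted p = 0.210).

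H3 and H4 form the tetramer at the centre of the nucleosome, and few of their genes were called. For comparison, 16.0% of all genes tested were called lower and 16.7% higher. Whether these classes differ from all genes was not tested. Among 12 H3 genes only H3c4 was called, with 10.4, 8.78 and 8.59 CPM in wild type and 5.83, 5.61 and 4.93 CPM in Mc5r-null. Its groups did not overlap, and the level was 1.66-fold lower (edgeR log2 fold change -0.73 ± 0.12 SE, adjusted p = 0.00251). H3c1, the most counted H3 gene, was the only tested member with every Mc5r-null value above the wild-type values, at 9.76, 10.4 and 10.8 CPM in wild type and 11.9, 11.1 and 11.1 CPM in Mc5r-null. The difference did not pass (0.17 ± 0.09, edgeR adjusted p = 0.158). H3c6 (-0.25 ± 0.11, edgeR adjusted p = 0.129) and H3c10 (0.07 ± 0.14, 0.755) were not called either.

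None of the 12 H4 genes was called with edgeR, DESeq2 or limma-voom, and none had groups that did not overlap. Over all genes tested, 28.7% had Mc5r-null values all below and 20.9% all above the wild-type values. H4 was the least counted class, with a median mean count of 54.5 and the widest median standard error, 0.18. At an unadjusted p under 0.05 in edgeR, 1 was higher and 0 were lower. H4c9, the H4 gene with the most counts, held 36.1, 28.9 and 34.96 CPM in wild type and 33.4, 33.5 and 36.3 CPM in Mc5r-null. The genotypes overlapped, with a log2 fold change of 0.08 ± 0.09 (SE; edgeR adjusted p = 0.533). The estimates of the 12 genes ran from -0.73 in H4c6, a gene with a mean of 17.8 counts (edgeR adjusted p = 0.119), to 0.28 in Hist1h4m (0.108), with a median of 0.02. Among the better counted ones, H4c8 was at 0.08 (0.632) and Hist1h4n at 0.10 (0.680).

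Summed by class, the level went from 257 to 197 CPM for H1, from 621 ± 16.9 to 449 ± 4.25 CPM for H2A and from 194 ± 3.91 to 131 ± 3.87 CPM for H2B (SD, n = 3 each). For H3 it went from 65.1 ± 2.40 to 60.5 ± 1.44 CPM and for H4 from 73.9 ± 3.22 to 75.4 ± 1.62 CPM. The log2 ratios were -0.38, -0.47, -0.56, -0.11 and 0.03 in the same order. H1, H2A, H2B and, by a narrow margin, H3 were lower in every Mc5r-null library than in any wild-type library, and H4 overlapped. Whether the classes differ from one another was not tested. The median of the mean counts was 249 for H1, 83.5 for H2A, 108 for H2B, 65.2 for H3 and 54.5 for H4, and the median standard error was 0.09, 0.15, 0.14, 0.17 and 0.18.

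**Figure D4:**
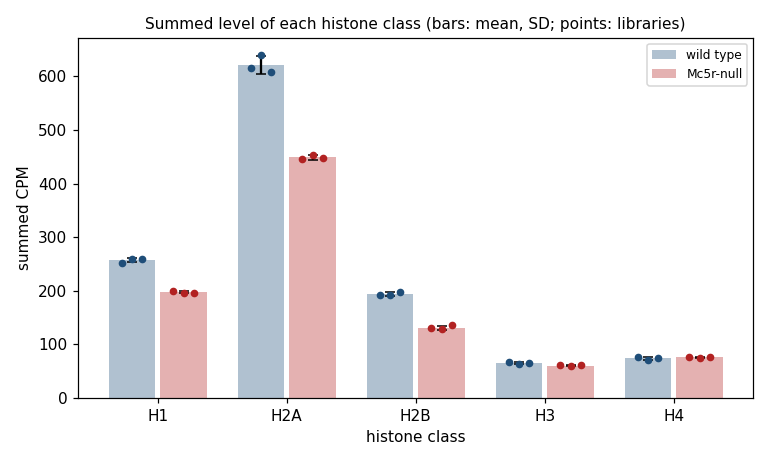
Summed CPM of the members of each histone class, with bars at the mean, error bars of 1 SD and a point for each of the 3 libraries of a genotype. H2A, H2B and H1 are lower in Mc5r-null, while the H4 sums of the genotypes, 73.9 and 75.4 CPM on average, lie side by side.

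By position, 8 of the 11 called members lay in the chr13 stretch of 29 members between 23.5 and 23.8 Mb and 3 in the neighbouring stretch of 24 members between 21.7 and 22.0 Mb. Among all genes tested 16.0% were called lower, and whether calls differ by position or by annotated transcript was not tested. Of the 10 members on chromosome 3, 9 were tested and 0 were called with edgeR, DESeq2 or limma-voom (1 lower at an unadjusted p under 0.05 in edgeR), and their median log2 fold change was -0.01. By annotated transcript, 19 members ran over 100 bases past a stem-loop, and 6 of them were called lower (median log2 fold change -0.20). Of the 23 ending within 100 bases of one, 2 were called (median -0.16), both of them the abundant Hist1h2ao and Hist1h2ap. Of the 24 with no stem-loop in the annotated transcript, 20 were tested and 3 were called (median -0.10). Some of these annotated transcripts are short, such as H4c12 (312 bases) and H2bc13 (381 bases), and may stop before a stem-loop. The group is therefore one of annotation and need not lack the stem-loop in the mRNA.

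Many H2A and H2B genes sit head to head and share the stretch between their starts. There were 13 such pairs with both genes tested and at most 1000 bases between them. A called gene was held by 4 of them, and in 2 both genes were called (H2ac6 with H2bc4, Hist1h2ao with Hist1h2bq). As 16.0% of all genes tested were called lower, these counts by themselves are no result about the pairs. The H2B gene had the lower log2 fold change in 7 pairs and the higher in 6. The estimates differed most in 3 pairs.

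H2ac8 and H2bc8 start 175 bases apart. H2ac8 held 6.82, 6.23 and 7.11 CPM in wild type and 6.48, 7.17 and 6.65 CPM in Mc5r-null, which overlapped (edgeR log2 fold change 0.04 ± 0.11 SE, adjusted p = 0.810), while H2bc8 was lower. The ratio of H2bc8 to H2ac8 counts was 7.70, 7.95 and 7.40 in wild type and 4.59, 4.27 and 5.25 in Mc5r-null, with no overlap. In the pair of H2ac6 and H2bc4, 250 bases apart, both were lower, and the ratio of H2bc4 to H2ac6 was 1.72, 1.69 and 1.97 in wild type and 1.22, 0.917 and 0.856 in Mc5r-null. Both ratios had a two-sided exact permutation p of 0.1, the smallest that 3 against 3 libraries allow, and 0.325 adjusted over the 13 pairs.

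The same p was reached by 2 other pairs. The ratio of Hist1h2bp to Hist1h2an was 0.340, 0.469 and 0.268 in wild type and 0.154, 0.255 and 0.212 in Mc5r-null. The ratio of H2bc21 to H2ac20 went the other way, from 1.20, 1.62 and 1.43 to 1.71, 1.65 and 1.86. The ratios of these 2 pairs did not overlap between the genotypes either. The smallest p that this test allows lies above the threshold for a call, so no pair could pass, with or without adjustment. The test therefore cannot decide whether the genes of a pair differ in their response.

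**Figure D5:**
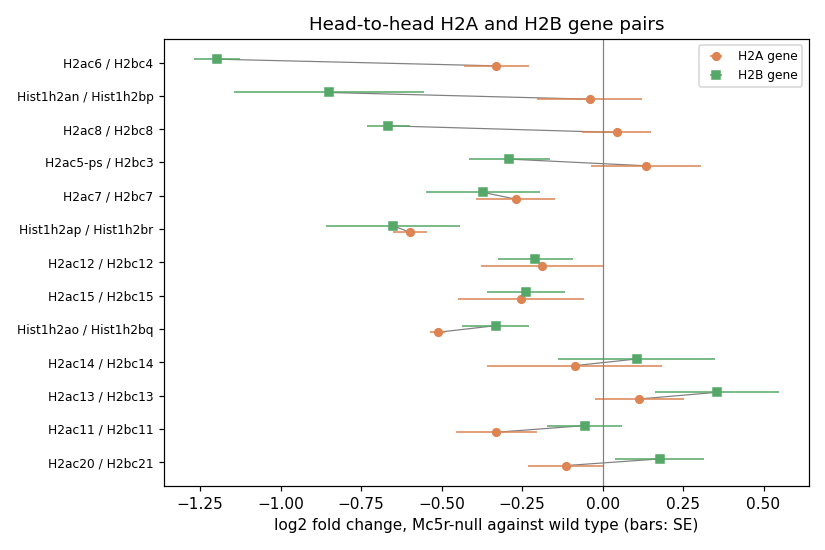
Log2 fold change (with SE) of the H2A gene (circles) and the H2B gene (squares) of each of the 13 head-to-head pairs, ordered by their difference. In H2ac6/H2bc4, Hist1h2an/Hist1h2bp and H2ac8/H2bc8 the square lies farthest to the left of the circle.

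The promoter window of H2bc8 is printed because it spans the whole stretch between the starts of H2bc8, which was called lower, and H2ac8, which was not. It reaches into the transcripts of both genes on either side of that stretch. The window is that of RefSeq on GRCm38.p6, chr13:23571150-23571449 on the plus strand, with 250 bases before the RefSeq start and 50 after it. Capitals mark matches on either strand of the TATA box letters TATAAA, of the letters CCAAT, which the factor NF-Y binds, and of the octamer ATTTGCAT, which Oct1 binds.
H2bc8 promoter: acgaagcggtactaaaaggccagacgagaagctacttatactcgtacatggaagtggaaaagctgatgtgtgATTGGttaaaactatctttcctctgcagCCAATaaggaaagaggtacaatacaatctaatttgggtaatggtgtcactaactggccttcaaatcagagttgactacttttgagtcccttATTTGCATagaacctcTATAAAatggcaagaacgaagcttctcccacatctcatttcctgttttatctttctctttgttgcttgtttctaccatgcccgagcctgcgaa

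The window held 1 TATAAA, 2 CCAAT and 1 ATTTGCAT match. Promoter windows of the same length were matched for 50 of the 66 members. TATAAA occurred on either strand in 60.0% of them, against 13.6% of 32851 promoters, and CCAAT in 88.0% against 37.4%. ATTTGCAT occurred in 24.0%, against 1.74% of all promoters, in 6 of 14 H2A and 6 of 12 H2B windows and in none of the H1, H3 and H4 windows. TTTCGCGC, a form of the E2F motif, occurred in 14% against 0.323%. CCAAT was in all 5 H1, 14 H2A, 12 H2B and 10 H3 windows but in 3 of 9 H4 windows. Head-to-head pairs share part of their windows, so these are not independent counts.

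Other genes of histone mRNA metabolism were examined from lists. Of all genes tested, 16.0% were called lower and 16.7% higher. Of 8 genes of histone gene transcription, 3 were called lower and 0 higher (median log2 fold change -0.08). Npat, the coactivator of histone genes that cyclin E and Cdk2 phosphorylate, was not called (-0.10 ± 0.06 SE, edgeR adjusted p = 0.239), whereas Casp8ap2, a protein of the histone locus body, was lower (-0.29, edgeR adjusted p = 0.00625). The cyclin E genes Ccne1 (-0.42, edgeR adjusted p = 0.00182) and Ccne2 were lower as well. Ccne2 held 26.1, 22.3 and 24.0 CPM in wild type and 12.7, 12.2 and 13.8 CPM in Mc5r-null, with no overlap (-0.87 ± 0.09, edgeR adjusted p = 0.000136).

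Of 11 genes that process the histone 3′ end, 2 were called lower and 0 higher (median -0.00457). The share called lower was close to the 16.0% of all genes tested. Slbp held 93.8, 89.9 and 91.3 CPM in wild type and 77.1, 74.4 and 83.0 CPM in Mc5r-null, with every Mc5r-null value lower (edgeR log2 fold change -0.20 ± 0.04 SE, adjusted p = 0.0101). Ncbp1, the large subunit of the cap-binding complex, was also lower (-0.11, edgeR adjusted p = 0.0457), and Lsm10, of the U7 snRNP, was not called (0.20 ± 0.16, 0.374). With DESeq2 none of the 11 was called. None of the 7 genes tested of histone mRNA decay, such as Xrn1 and Lsm1, was called with edgeR, DESeq2 or limma-voom, and 0 had an unadjusted p under 0.05 in edgeR (median 0.04).

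Of 16 genes of poly-A site cleavage and tailing, which make the tails by which these libraries were captured, 3 were called lower and 0 higher (median -0.07). They were Pcf11 (-0.18, edgeR adjusted p = 0.00170), Cstf3 (-0.23, 0.0104) and the poly-A polymerase Papola (-0.16, 0.0305). The share called lower was close to the 16.0% of all genes tested, so the number of calls is no result about tailing genes. With DESeq2 1 of the 16 was called lower. RNAs that normally carry no long tail gave a second view of what was captured. Of 7 such RNAs tested, 4 were higher and 1 was lower, where 16.7% and 16.0% of all genes were. Rn7sk, the RNA of the 7SK complex, held 4.68, 5.43 and 3.69 CPM in wild type and 10.2, 9.59 and 8.30 CPM in Mc5r-null (edgeR log2 fold change 1.06 ± 0.16 SE, adjusted p = 0.00118), while the mitochondrial rRNA mt-Rnr2 fell by 0.22 (edgeR adjusted p = 1.60e-05). The part of poly-A capture in the histone differences was not tested.

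Genes of DNA replication were lower together with the histone genes. Of 28 S phase genes tested, 17 were called lower and 0 higher (median log2 fold change -0.17), where 16.0% of all genes were called lower. With DESeq2 10 of them were lower and 0 higher. Rrm2, the S-phase subunit of ribonucleotide reductase, held 223.0, 225.0 and 225.5 CPM in wild type and 154.0, 151.7 and 155.8 CPM in Mc5r-null. Its groups lay far apart, with a log2 fold change of -0.51 ± 0.02 (SE; edgeR adjusted p = 7.70e-07). The replication licensing gene Cdc6 (-0.52 ± 0.06, edgeR adjusted p = 0.000223), Rrm1 (-0.20, 0.000346) and the helicase subunit gene Mcm4 (-0.18, 0.000324) were lower too. The share of cells in S phase was not measured.

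Histone variants listed as replication-independent did not share 1 direction. Of 11 tested, 4 were higher and 3 were lower (median -0.08), where 16.7% and 16.0% of all genes were. H3f3b, a gene of H3.3, was lower, from 1338 ± 37.1 to 1093 ± 11.7 CPM (SD, n = 3 each; edgeR adjusted p = 3.22e-05), as was H2ax (-0.16, edgeR adjusted p = 0.00101), whose protein is phosphorylated at DNA breaks. H1f0, a linker histone of non-dividing cells, was higher, from 82.8 ± 2.76 to 97.0 ± 2.72 CPM (0.26 ± 0.04 SE, edgeR adjusted p = 0.00135), and so was Macroh2a1 (0.18, edgeR adjusted p = 5.42e-05). Of 21 histone chaperone genes 5 were lower and 2 higher (median 0.000494), where 16.0% and 16.7% of all genes were. The lower ones included Asf1b (-0.41 ± 0.06, edgeR adjusted p = 0.00148), which hands over H3 and H4 at the replication fork, Hat1 (-0.27, 0.000519), Nasp (-0.19, 0.00225) and Rbbp4 (-0.18, 0.000715).

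Markers of cells outside the LSK gate differed between the genotypes beside these results. Of 13 plasma cell markers 12 were higher, and their sum ran from 11720 to 11790 CPM in wild type and from 37210 to 39640 CPM in Mc5r-null. Immunoglobulin genes took 2.14 to 2.15% of counts in wild type and 6.86 to 6.96% in Mc5r-null. With these genes left out of the totals, the summed histone level still had a log2 ratio of -0.33. Of 9 erythroid markers 7 were higher and 1 lower (272 to 278 CPM against 392.1 to 396.1 CPM). Of 10 neutrophil markers 7 were lower and 2 higher (13890 to 14930 CPM against 9161 to 9482 CPM), and of 8 basophil and mast cell markers 6 were lower and 1 higher (722 to 768 CPM against 507 to 569 CPM). The 1 higher was Kit, a marker of the LSK gate itself, which is counted again among the LSK markers. Of 7 B and T lineage markers tested 3 were higher and 2 lower (144 to 184 CPM against 175 to 210 CPM), and of the 12 LSK markers 8 were higher and 1 lower (1685 to 1720 CPM against 2012 to 2075 CPM). No marker of these lists was at 0 in all libraries. The part of the cell mixture in the histone differences was not tested.

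Outside the called genes, 10 tested members also had every Mc5r-null value below the wild-type values. They include H2ac11, with 7.69, 7.70 and 8.25 CPM in wild type and 5.62, 7.17 and 5.58 CPM in Mc5r-null (-0.33, edgeR adjusted p = 0.0807). H2bc7 (-0.37, edgeR adjusted p = 0.148), H2bc3 (-0.29, 0.113), H2ac7 (-0.27, 0.129) and H2bc15 (-0.24, 0.173) did not overlap either and did not pass. The others were H1f5, H3c6, H2bc9, Hist1h2bp and Hist1h2br, described above. With the called members these made 21 of the 62 tested, where 28.7% of all genes tested had such values. Their number by itself is therefore no result about histone genes.

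H2ac1 held no count in any library, and H2bc1, Hist1h2al and H2ac21 were below the count limit. The 2 tested pseudogenes H2ac5-ps and H2ac14 had estimates of 0.13 and -0.09 and were not called. Among replication-type genes that the name rule leaves out, H2aw was lower, from 24.0 ± 1.20 to 16.5 ± 0.840 CPM (SD, n = 3 each; edgeR adjusted p = 0.00104, log2 fold change -0.51 ± 0.07 SE), and H2bu2 (0.005, edgeR adjusted p = 0.980) and H4f16 (0.24, 0.437) were not called.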

How the data were processed

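Gene counts per library were deposited by the authors as whole numbers with no normalization, beside deposited FPKM values, which per the file headers divide counts by depth and length. The FPKM values were used only to compare levels between genes and in 1 alternative. They use the summed length of annotated transcripts for some members, so these are low per length. The submitters' processing notes name CASAVA 1.8, HISAT2, StringTie, edgeR and GRCm38, without roles. The program that counted and its annotation release are not given in the sources used here.

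Genes with at least 10 counts in 3 of 6 libraries were kept. They were scaled by TMM and tested for genotype in R 4.3.3 with edgeR 4.0.16 (robust quasi-likelihood F-test, Benjamini-Hochberg over all genes tested, threshold 0.05). Fold changes are edgeR's fitted values. CPM values divide by a library's total count over all genes. The fit was checked on simulated data. Stem-loops and shared 50-base stretches came from GENCODE release 21 transcripts, in which all 66 members were found at the same position. Promoters came from RefSeq GRCm38.p6. Alternatives were other scalings, DESeq2 1.42.0, limma 3.58.1 voom, other filters and thresholds, a replicate block, each library left out, and fits without immunoglobulin genes.

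Members and lists were chosen with earlier results of these data known. Genes were named by rule: Mc5r, up to 12 called members in each direction, the 6 highest by FPKM, every H1 and up to 4 of each core class by count, up to 4 of each list by p, and members with an over 2-fold spread within a genotype. Other genes named were chosen after their values were seen. Libraries with the same number in both genotypes did not deviate together (correlations 0.0147, -0.0415 and -0.0233), so no block was used. Replicates differed by more than counting noise. With 3 libraries per genotype no outlier test was made. A count of 0 allows up to 3 counts by counting error alone. PCR copies of 1 molecule are counted repeatedly, which this limit leaves out.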

Additional observations from a re-analysis of the deposited data

How the results depend on the processing

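Over all genes, calls numbered 5027 in the reported fit, and 3099 with DESeq2 and 3001 at an adjusted p under 0.01; the cause was not tested. Histone members called lower numbered 11, and 6 at 0.01, 9 with DESeq2, 8 with the replicate number as a block, and 7 to 11 with 1 library left out (7 without wild-type replicate 2). Members called higher numbered 0, and 0 to 1 with a library left out; the 1, without wild-type replicate 2, was H2bc21. H1f1, H1f2, H2bc4, H2bc8, H3c4, Hist1h2ao and Hist1h2ap were called lower at 0.05 in every fit run. The block also ended the calls of H1f4 (adjusted p = 0.0746), H2ac6 (0.0503) and Hist1h2bq (0.0555), and its use rests on replicate numbers alone. The log2 ratio of the summed level, -0.41, was -0.37 with TMM-scaled totals, -0.33 without immunoglobulin genes and -0.41 to -0.40 with 1 library left out. Alternatives chosen after seeing the data gave -0.31 without Hist1h2ao and Hist1h2ap and -0.42 without H2ac18. In a further such alternative, genes were summed where at least 70% of the stretches of 1 occurred in another. The median log2 fold change was then -0.21. With 1 library left out, signs turned only in members that were not called. The log2 fold change ran from -0.30 (without wild-type replicate 3) to 0.85 in H2ac18, from -0.00834 (without wild-type replicate 2; -0.00375 without Mc5r-null replicate 2) to 0.0849 in H2ac8, and from -0.15 to 0.0344 (without Mc5r-null replicate 1) in H2bc11. It ran from -0.0385 (without Mc5r-null replicate 1; -0.0293 without wild-type replicate 3) to 0.17 in H3c10 and from -0.00583 (without Mc5r-null replicate 3) to 1.24 in H3c14. It ran from -0.0131 to 0.14 in H4c9 and from -0.0371 to 0.20 in Hist1h4n, both lowest without wild-type replicate 2. H2ac18 also moved from 0.29 to 3.05 with limma-voom (adjusted p = 0.277) and to 0.80 with the replicate block (0.780), not called in any fit. The median standard error was 0.18 in the 42 tested members outside the 20 with the highest counts and 0.10 in those 20; the part of depth in the number of calls was not tested.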
